A study of Mus musculus with 15 samples.

Results

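KD4 is a line of 6DT1 mouse mammary cancer cells that carries a lentiviral hairpin against Smarcd1, and it was set here against shScr, the 6DT1 line with a scrambled hairpin. The comparison took the 3 libraries that the labels title Smarcd1_KD4 and the 3 scrambled-hairpin libraries, which are 6 of the 15 libraries of the series, and all 13669 genes of the table in which these libraries are listed. The other libraries came from a second Smarcd1 hairpin line (KD6), a Smarcd1 overexpression line (OE) and an empty-vector line (EV), with 3 libraries each, and they were used only to place KD4. All lines were grown untreated as monolayers in serum-containing medium and were harvested 24 h after seeding at 70% confluence. The KD4, KD6 and shScr lines were kept in puromycin, and OE and EV, which carry another vector, in blasticidin. The replicates of a line were seeded from different passages, and each line is a single transduced line. Whether it grew from 1 cell or from many is not given in the sources used here, so the hairpin and the line that carries it cannot be told apart.

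Smarcd1 encodes BAF60a, an accessory subunit of the BAF (SWI/SNF) complexes, which use ATP to slide or evict nucleosomes and so open regulatory DNA to transcription factors. BAF60a, BAF60b and BAF60c are the products of the paralogs Smarcd1, Smarcd2 and Smarcd3, and a complex holds a single member of this family as a contact for transcription factors. A hairpin RNA is cut by the cell into a short guide that pairs with the target messenger RNA and lowers its level, so a remainder of the transcript is the usual state of such a line.

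Expression was measured by mRNA sequencing and is given as CPM, the reads of a gene scaled to the total of its library. Added over the table, these values came to 894250 to 901598 in the KD4 libraries and 899805 to 902172 in the shScr libraries, and transcripts of mitochondrial DNA took 4.54% to 4.93% of the sum in KD4 and 4.35% to 5.49% in shScr. The reads behind these values are unknown, so counting error could not be computed. KD4 replicate 1 stood apart from KD4 replicate 3. Its median absolute log2 difference was 0.164 to KD4 replicate 3, 0.141 to shScr replicate 3 and 0.128 to KD4 replicate 2. KD4 replicate 3 likewise lay nearer shScr replicate 2 (0.151) than KD4 replicate 1. On the first principal component, which held 32.8% of the variance of the 9 hairpin libraries, the KD4 libraries lay at -10.8, -13.2 and -18.1, the KD6 libraries at -4.43, 3.68 and 5.78 and the shScr libraries at 14.6, 10.3 and 12.1, so that KD6 lay between the other lines. The cells expressed Krt8 and Krt18, keratins of simple epithelium, at 429 and 393 CPM in KD4 and 384 and 315 CPM in shScr, and 5 of 10 markers of mammary carcinoma epithelium were in the table, with Epcam and Cdh1, its defining junction markers, not among them. Of the markers of other cells, 1 of 10 for fibroblasts (Pdgfra), 1 of 13 for immune cells (Cd68), 1 of 8 for endothelium (Egfl7), 1 of 10 for myoepithelium (Mylk) and 0 of 7 for adipocytes were listed. Ptprc, Pecam1 and Col1a1 were not among the listed genes.

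The first question was whether the hairpin target had the level that the name of the line states. Smarcd1 (ENSMUSG00000023018) had 9.07, 9.05 and 9.27 CPM in KD4, against 14.5, 16.5 and 15.04 CPM in shScr. The KD4 libraries lay close together and below every shScr library, with means of 9.13 ± 0.121 CPM in KD4 and 15.3 ± 1.01 CPM in shScr (SD, n = 3 each), so that KD4 held 59.5% of the shScr level. The log2 difference was -0.69 with a standard error of 0.09 in a limma fit over all genes of log2(CPM + 1) (adjusted p = 0.00315). In RNA from whole cultures a lower level in each cell and fewer cells with the transcript cannot be told apart. An exact two-sided permutation test of the 6 values gave p = 0.1, the smallest that 3 against 3 libraries allow. In KD6 the same gene had 13.2, 14.8 and 15.1 CPM, or 93.6% of shScr, and KD6 exceeded KD4 by 0.60 on the log2 scale (limma adjusted p = 0.00292).

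The paralogs did not pass the threshold of an adjusted p under 0.05. Smarcd2 had 91.3, 88.0 and 91.0 CPM in KD4, against 76.7, 76.7 and 79.0 CPM in shScr, and the groups did not overlap, but the difference of 0.21 on the log2 scale had a limma adjusted p of 0.0754. Smarcd3 had 5.72, 5.85 and 4.98 CPM in KD4, against 4.42, 6.90 and 7.05 CPM in shScr, which overlap. Of the 25 measured BAF genes other than Smarcd1, 0 passed by limma (9 at an unadjusted p under 0.05), with a median log2 difference of 0.10 against 0.00067 over all genes. The smallest adjusted p belonged to Brd9, a subunit of the non-canonical complex, with 34.4 CPM in KD4 and 27.6 CPM in shScr (limma adjusted p = 0.0571). The count depended on the libraries in the fit, with 1 gene risen and 1 fallen without KD4 replicate 1 and 2 risen with the KD6 libraries in the fit, and it was 0 in the other 5 fits that left out 1 library.

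**Figure D1:**
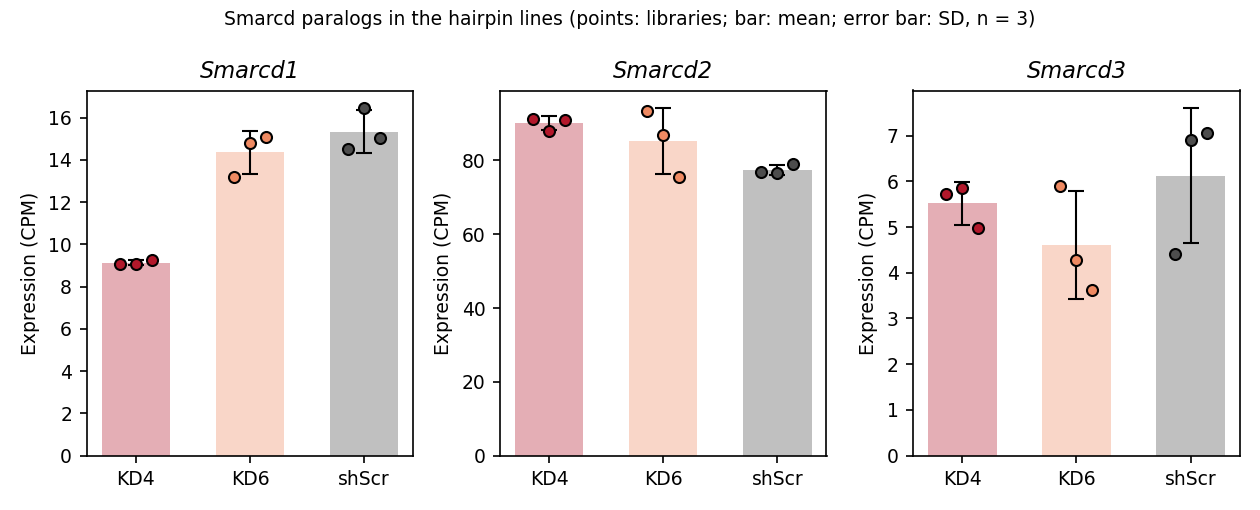
Expression of Smarcd1, Smarcd2 and Smarcd3 in CPM (vertical axes, from 0) in the KD4, KD6 and shScr libraries, with points for libraries, bars for means and error bars for the SD of 3 libraries. Smarcd1 lies at 9.05 to 9.27 CPM in KD4 and at 14.5 to 16.5 CPM in shScr, with KD6 near shScr.

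The second question was which genes differed between the hairpin line and its control. Of 13669 genes, 1011 passed (7.4%), of which 612 rose in KD4 (4.48% of the genes tested) and 399 fell (2.92%). The groups of 3 libraries did not overlap in 4031 genes (29.5%), among them all 1011 that passed. Most changes were small on the log2(CPM + 1) scale, which understates changes of low genes. On that scale CPM + 1 moved by more than 1.5-fold in 394 of the 1011 genes, 248 upwards and 146 downwards. It moved by more than 2-fold in 96. Folds of the CPM themselves are larger in low genes and were not counted. The median log2 difference over all genes was 0.00067, so that the table as a whole was centred near 0. The number of called genes depended on single libraries: it was 376 without KD4 replicate 2, and 434, 411 and 486 without shScr replicates 1, 2 and 3. Without KD4 replicate 1 it was 1082, and without KD4 replicate 3 it was 825.

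**Figure D2:**
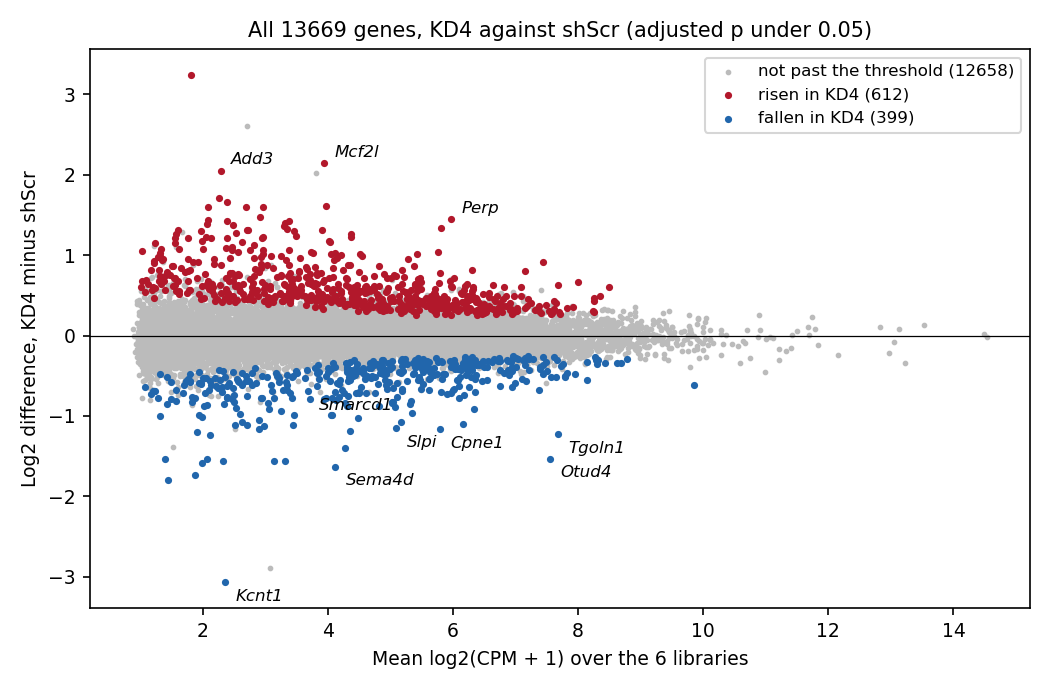
Log2 difference between KD4 and shScr (vertical axis) against the mean log2(CPM + 1) over the 6 libraries (horizontal axis) for all 13669 genes, with 612 risen genes in red, 399 fallen genes in blue and the other genes in grey. Otud4 and Tgoln1 stand out among the abundant genes, and Mcf2l, Add3 and Kcnt1 among those of low or middle level.

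The 15 risen genes with the largest log2 difference, among named genes of at least 2 on the mean log2 scale, are given first, with what each is known to do. Mcf2l, which encodes a guanine nucleotide exchange factor, led them with 36.2, 29.7 and 28.8 CPM in KD4, against 7.48, 5.54 and 6.14 CPM in shScr (log2 difference 2.14, SE 0.13, limma adjusted p = 0.000173). Add3 encodes gamma-adducin, which joins spectrin to actin under the membrane, and had 8.66, 9.46 and 8.80 CPM in KD4, against 1.91, 1.54 and 0.866 CPM in shScr (log2 difference 2.05, SE 0.16, limma adjusted p = 0.000543). In both genes the 3 KD4 libraries lay close together and above every shScr library.

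Epb41l4b, a member of the band 4.1 family of membrane-to-cytoskeleton linkers, had 7.83, 6.40 and 8.95 CPM in KD4, against 2.41, 1.39 and 1.26 CPM in shScr (log2 difference 1.71). Synpo encodes synaptopodin, an actin-associated protein, and had 10.7, 11.1 and 9.30 CPM in KD4, against 2.61, 2.45 and 3.17 CPM in shScr (log2 difference 1.60). Perp, a membrane protein of desmosomes and a known p53 target, was the most abundant of the 15, with 95.8, 101 and 110 CPM in KD4, against 39.4, 38.5 and 32.8 CPM in shScr (log2 difference 1.45, SE 0.09, limma adjusted p = 0.000232). The libraries of each of these genes kept apart by line.

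Col12a1 and the netrins encode secreted proteins. Col12a1, a collagen that associates with fibrils, had 14.99, 18.3 and 12.9 CPM in KD4, against 5.37, 5.48 and 4.67 CPM in shScr (log2 difference 1.40). Ntn1 had 6.87, 5.58 and 5.55 CPM in KD4, against 1.20, 1.55 and 2.03 CPM in shScr (log2 difference 1.44), and Ntn4 had 5.19, 6.78 and 5.47 CPM in KD4, against 1.67, 2.09 and 1.08 CPM in shScr (log2 difference 1.39). Netrins are laminin-related guidance proteins, and Ntn4 is also a component of basement membranes.

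The remaining risen genes had metabolic or signalling roles. The glutathione S-transferases Gstm7 and Gstm2 had 7.53, 10.98 and 6.87 CPM and 10.5, 13.9 and 10.8 CPM in KD4, against 2.32, 1.57 and 1.94 CPM and 3.19, 4.01 and 3.47 CPM in shScr (log2 differences 1.67 and 1.48). They belong to a family of near-identical genes whose reads can be split between members, so the value of each is less certain than that of the pair. Acacb, the mitochondrial acetyl-CoA carboxylase that makes the inhibitor of fatty acid import, had 7.59, 5.27 and 6.43 CPM in KD4, against 0.889, 1.505 and 2.01 CPM in shScr (log2 difference 1.60). Blnk, an adaptor known from B-cell receptor signalling, averaged 26.5 ± 3.43 CPM in KD4 and 8.09 ± 1.84 CPM in shScr (SD, n = 3 each), and Eya1, a transcriptional coactivator with phosphatase activity, averaged 7.57 ± 0.53 CPM in KD4 and 2.20 ± 0.308 CPM in shScr. Lgalsl, a galectin-like gene, had 12.5, 19.9 and 7.77 CPM in KD4, against 3.52, 3.59 and 3.31 CPM in shScr, and so varied more among the KD4 libraries than the genes above.

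Nos1, the neuronal nitric oxide synthase, was the only one of the 30 leading genes that lost its call under any of the alternatives run. It had 4.78, 11.3 and 9.45 CPM in KD4, against 3.39, 1.91 and 2.29 CPM in shScr (log2 difference 1.38, SE 0.27, limma adjusted p = 0.0176), and KD4 replicate 1 lay close to the highest shScr library. The call was lost without KD4 replicate 2 and without shScr replicate 2 or 3, with an adjusted p of up to 0.0687. It was also lost with a replicate block in the fit (limma adjusted p = 0.052).

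Among the 15 fallen genes, Otud4 and Tgoln1 were the most abundant. Otud4, a deubiquitinase, had 103, 110 and 116 CPM in KD4, against 347, 306 and 305 CPM in shScr (log2 difference -1.53, SE 0.08), with the smallest limma adjusted p of the table (0.000164). Tgoln1 encodes a membrane protein that cycles between the trans-Golgi network and the cell surface, and had 123, 133 and 146 CPM in KD4, against 343, 302 and 299 CPM in shScr (log2 difference -1.23, SE 0.09). In both genes the highest KD4 library lay far below the lowest shScr library.

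Cpne1 and Cpne8 encode copines, calcium-dependent phospholipid-binding proteins. Cpne1 had 31.1, 36.3 and 41.0 CPM in KD4, against 74.1, 82.3 and 89.3 CPM in shScr (log2 difference -1.16). Cpne8 had 4.70, 4.12 and 4.20 CPM in KD4, against 10.6, 10.7 and 10.7 CPM in shScr (log2 difference -1.13). Slpi, an inhibitor of leukocyte elastase and other serine proteases, had 19.9, 23.6 and 22.3 CPM in KD4, against 50.1, 45.0 and 54.6 CPM in shScr (log2 difference -1.15). The libraries of a line differed by little in these genes, beside the distance between the lines.

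Sema4d, a transmembrane semaphorin that binds plexin-B receptors, had 9.54, 8.595 and 8.57 CPM in KD4, against 30.7, 26.7 and 31.8 CPM in shScr (log2 difference -1.63, SE 0.10, limma adjusted p = 0.000173). Neurl1b, a ubiquitin ligase for Notch ligands, had 5.26, 5.10 and 4.09 CPM in KD4, against 13.7, 15.6 and 19.3 CPM in shScr (log2 difference -1.56). Srgn, the core protein of the proteoglycan serglycin, had 2.697, 4.91 and 5.27 CPM in KD4, against 15.6, 14.3 and 12.9 CPM in shScr (log2 difference -1.56). These genes act in cell-to-cell signalling or secretion, and none of their KD4 libraries reached the lowest shScr library.

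Fallen genes of metabolism and transport included 2 of acid and lactate handling. Slc16a3 encodes MCT4, the carrier that exports lactate from glycolytic cells, and had 10.7, 12.3 and 9.79 CPM in KD4, against 27.4, 32.1 and 31.8 CPM in shScr (log2 difference -1.40). Car12 encodes carbonic anhydrase 12 of the cell surface, and had 15.5, 12.8 and 10.2 CPM in KD4, against 28.1, 33.6 and 28.4 CPM in shScr (log2 difference -1.18). The other fallen genes were of lower level. Dhdh, a dihydrodiol dehydrogenase, averaged 4.003 ± 0.269 CPM in KD4 and 10.2 ± 0.429 CPM in shScr (SD, n = 3 each), and the water channel Aqp8 averaged 1.98 ± 0.839 CPM in KD4 and 7.76 ± 1.99 CPM in shScr. Septin4, of the septin GTPases, averaged 1.84 ± 0.428 CPM in KD4 and 5.64 ± 0.701 CPM in shScr, and Ogdhl, a relative of the oxoglutarate dehydrogenase subunit, averaged 1.52 ± 0.632 CPM in KD4 and 6.29 ± 1.91 CPM in shScr.

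Kcnt1, a sodium-activated potassium channel, had the largest fall of the 15 and also the most uneven values. It had 0.0037, 1.33 and 1.38 CPM in KD4, against 24.3, 11.1 and 9.81 CPM in shScr (log2 difference -3.07, SE 0.39, limma adjusted p = 0.00281). The value of KD4 replicate 1 is near 0, and without a read depth a fold change from such values cannot be bounded. Its single listed transcript had 0.00196, 0.00193 and 0.00205 CPM in KD4, so transcript and gene values of Kcnt1 disagree for KD4 replicates 2 and 3. In shScr the transcript had 6.90, 20.4 and 12.7 CPM, which differ from the gene values as well.

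**Figure D3:**
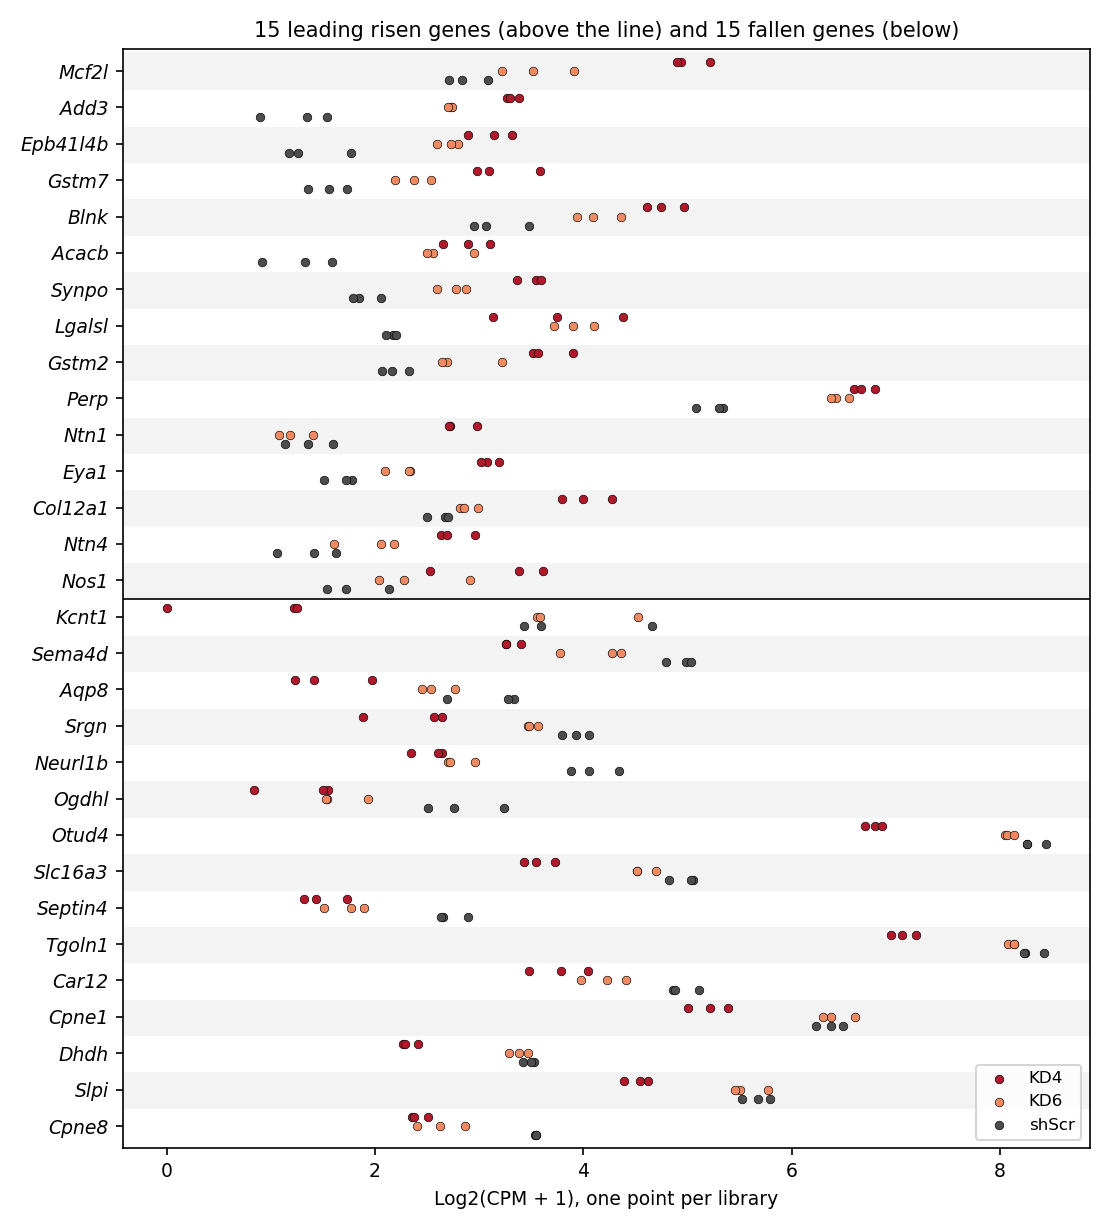
Log2(CPM + 1) of each library (horizontal axis) for the 15 leading risen genes above the line and the 15 leading fallen genes below it, with KD4 in red, KD6 in orange and shScr in grey. KD4 and shScr libraries do not overlap in any of the 30 genes, by the way they were chosen, and KD6 lies at different places between or beside them.

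Gene lists were then read for their counts of called genes, beside the 4.48% of all genes that rose and the 2.92% that fell. Leaving out KD4 replicate 2 or a shScr library lowered most of these counts, as it did that over all genes. Junction, membrane skeleton and actin genes held called members that rose and 0 that fell. At the 2.92% of all genes that fell, lists of this size hold few fallen members in any case. Of 25 measured genes of cell junctions, 8 rose and 0 fell by limma (12 and 0 at an unadjusted p under 0.05), with a median log2 difference of 0.20. Besides Perp, the desmosomal cadherin Dsc2 had 21.99, 26.0 and 23.6 CPM in KD4, against 12.2, 11.2 and 11.6 CPM in shScr (log2 difference 0.97), and the tight junction protein Ocln had 7.71, 11.8 and 8.86 CPM in KD4, against 2.34, 3.98 and 3.30 CPM in shScr (log2 difference 1.31). The desmosomal cadherin Dsg2 had 76.6, 68.5 and 59.8 CPM in KD4, against 49.8, 37.6 and 41.5 CPM in shScr (log2 difference 0.66). In each fit that left out 1 library, Perp, Dsc2 and Ocln kept their calls, while the other 5, Dsg2 among them (adjusted p up to 0.0638 without KD4 replicate 2, shScr replicate 2 or shScr replicate 3), lost theirs in at least 1 such fit. Of 21 measured genes of the membrane skeleton 4 rose and 0 fell by limma (5 and 1 at an unadjusted p under 0.05), and Add3 and Epb41l4b were the 2 that kept their calls whichever library was left out. The junction list held 5 risen genes without KD4 replicate 2, and 4, 3 and 5 without shScr replicates 1, 2 and 3, and the skeleton list held 2 in each of these fits.

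Most actin genes did not pass. Of 24 measured genes of actin and of the serum response factor, which drives many cytoskeletal genes, 4 rose and 0 fell by limma (7 and 0 at an unadjusted p under 0.05), with a median log2 difference of 0.13, and all 4 kept their calls in each fit that left out 1 library. Next to Synpo these were the tropomyosins Tpm1, with 429, 456 and 450 CPM in KD4, against 283, 321 and 271 CPM in shScr (log2 difference 0.61), and Tpm2, with 89.4, 90.8 and 88.3 CPM in KD4, against 64.9, 68.3 and 59.7 CPM in shScr (log2 difference 0.47). Csrp1, a LIM-domain partner of actin, had 159, 203 and 200 CPM in KD4, against 93.3, 126 and 104 CPM in shScr (log2 difference 0.80). Tropomyosins stabilise actin filaments, and their separation by line was complete in the 6 libraries.

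Of 29 measured genes of matrix and adhesion, 9 rose and 0 fell by limma (10 and 2 at an unadjusted p under 0.05), with a median log2 difference of 0.09. Without KD4 replicate 1, 8 rose and 2 fell, and 5, 4 and 4 rose without KD4 replicate 2, shScr replicate 1 and shScr replicate 2. Ccn1 and Ccn2, matricellular proteins and known YAP targets, had 191, 145 and 168 CPM and 105, 90.5 and 91.6 CPM in KD4, against 106, 109 and 113 CPM and 61.6, 66.8 and 65.2 CPM in shScr (log2 differences 0.61 and 0.56). They were the only 2 of 21 YAP targets that passed. Tgfbi, a secreted protein that TGF-beta induces, had 2.96, 2.75 and 2.36 CPM in KD4, against 0.981, 0.693 and 0.567 CPM in shScr (log2 difference 1.08). These 3 of the 9 genes kept their calls whichever library was left out.

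The plasminogen system and matrix proteases moved in both directions, with 4 of 23 measured genes risen and 4 fallen. Adamts1, a secreted metalloprotease that cleaves proteoglycans, had 43.5, 48.5 and 50.9 CPM in KD4, against 24.9, 27.6 and 27.2 CPM in shScr (log2 difference 0.82). Mmp10, or stromelysin 2, had 8.90, 7.39 and 12.7 CPM in KD4, against 3.98, 3.20 and 4.16 CPM in shScr (log2 difference 1.13), and Mmp14, the membrane-type protease that activates gelatinase A, had 62.9, 63.6 and 64.3 CPM in KD4, against 44.2, 48.3 and 45.7 CPM in shScr (log2 difference 0.46). The protease inhibitor Serpine2 went the other way, with 24.9, 23.7 and 22.2 CPM in KD4, against 35.1, 37.4 and 42.0 CPM in shScr (log2 difference -0.67). These 4 genes were called in each fit that left out 1 library, and the other 4 lost their calls in at least 1 of these fits. The fallen genes of the list numbered 1 without KD4 replicate 2, and 2 without shScr replicate 1 or 3.

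Signalling lists held called ligands and receptors. In the Wnt pathway 4 of 25 measured genes rose and 0 fell by limma (8 and 2 at an unadjusted p under 0.05). The ligand Wnt9a had 5.05, 5.05 and 5.40 CPM in KD4, against 1.19, 1.38 and 2.03 CPM in shScr (log2 difference 1.30), and Wnt7b had 52.9, 58.6 and 70.7 CPM in KD4, against 25.4, 28.8 and 34.1 CPM in shScr (log2 difference 1.02). The other 2 were the receptors Fzd7 and Fzd2, which lost their calls in 5 of the 6 fits that left out 1 library, so that the list held 2 risen genes in each of them, with 1 fallen gene without KD4 replicate 1, and it held 7 risen genes without KD4 replicate 3. Of the receptor tyrosine kinases 4 of 21 measured rose, and 0 fell by limma (7 and 0 at an unadjusted p under 0.05), among them Pdgfra, the alpha receptor of platelet-derived growth factor, with 7.75, 7.67 and 7.12 CPM in KD4, against 3.55, 2.54 and 3.34 CPM in shScr (log2 difference 1.05). The ephrin receptor Epha4 had 10.4, 12.03 and 11.6 CPM in KD4, against 5.99, 6.61 and 6.39 CPM in shScr (log2 difference 0.75). Such receptors read growth factors and membrane-bound ligands of neighbouring cells. Pdgfra is also the single listed fibroblast marker, and fibroblast collagens such as Col1a1 and Col3a1 were not among the listed genes.

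In the Notch pathway 2 of 27 measured genes rose and 2 fell. The fallen ones were Neurl1b and the ligand Jag2, which had 51.0, 52.9 and 41.4 CPM in KD4, against 92.2, 110 and 112 CPM in shScr (log2 difference -1.10, limma adjusted p = 0.00108). In the TGF-beta pathway 3 of 30 rose and 1 fell. Ltbp1, which holds latent TGF-beta in the matrix, had 58.6, 51.5 and 55.2 CPM in KD4, against 28.9, 27.9 and 32.1 CPM in shScr (log2 difference 0.87), and Tgfbr1, the type I receptor, had 22.95, 21.8 and 26.4 CPM in KD4, against 38.2, 37.3 and 34.6 CPM in shScr (log2 difference -0.61). Among 18 measured semaphorins and their receptors, 3 rose and 2 fell. Sema3b had 3.55, 4.58 and 3.69 CPM in KD4, against 1.39, 1.76 and 1.67 CPM in shScr (log2 difference 0.92), and Sema6d, which fell as Sema4d did, had 5.45, 4.91 and 7.09 CPM in KD4, against 10.6, 10.2 and 11.2 CPM in shScr (log2 difference -0.78). The risen counts of these lists were the less stable. The Notch list held 0 risen genes without KD4 replicate 2 and 1 without shScr replicate 1 or 2, and the TGF-beta and semaphorin lists each held 1 without KD4 replicate 2 or any shScr replicate.

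Inflammatory and interferon genes were mixed. Of 22 measured NF-kB and inflammatory genes, 3 rose and 3 fell, with 1 fallen without KD4 replicate 1 or any shScr replicate. Nfkbia, the inhibitor that NF-kB itself induces, had 85.1, 69.6 and 76.0 CPM in KD4, against 47.5, 51.1 and 50.2 CPM in shScr (log2 difference 0.62), and Csf1, the macrophage growth factor, had 88.3, 68.6 and 76.4 CPM in KD4, against 46.4, 52.9 and 52.0 CPM in shScr (log2 difference 0.61). Il23a, a subunit of interleukin 23, had 0.596, 0.571 and 0.246 CPM in KD4, against 3.04, 4.24 and 5.25 CPM in shScr (log2 difference -1.80). Among 19 cytokine receptor chains 4 rose and 2 fell, with 1 risen without KD4 replicate 2, shScr replicate 1 or shScr replicate 2, and 1 fallen without KD4 replicate 2, shScr replicate 1 or shScr replicate 3. Il15ra, which presents interleukin 15 to neighbouring cells, had 30.3, 27.5 and 38.04 CPM in KD4, against 14.5, 14.8 and 16.2 CPM in shScr (log2 difference 1.02). Il2rg, the common gamma chain, fell, with 26.8, 27.6 and 34.6 CPM in KD4, against 56.0, 51.9 and 49.4 CPM in shScr (log2 difference -0.81).

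Of 32 measured interferon-stimulated genes, 7 rose and 3 fell, with a median log2 difference of 0.22. Gbp2, a guanylate-binding protein, had 23.6, 29.7 and 25.1 CPM in KD4, against 15.5, 12.2 and 13.5 CPM in shScr (log2 difference 0.88), and Ifih1, the sensor MDA5 of double-stranded RNA, had 22.2, 21.5 and 20.2 CPM in KD4, against 14.2, 12.3 and 13.6 CPM in shScr (log2 difference 0.64). With Cmpk2 these kept their calls in each fit that left out 1 library, and the other 7 did not. Without KD4 replicate 1 the list held 6 risen genes and 1 fallen gene. Without KD4 replicate 2 it held 4 risen and 0 fallen, and without shScr replicates 1, 2 and 3 it held 3, 3 and 4 risen and 1, 0 and 0 fallen.

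Metabolic lists differed in how their members moved. In fatty acid metabolism 4 of 34 measured genes rose and 0 fell by limma (7 and 1 at an unadjusted p under 0.05). Next to Acacb, Cpt1a, the gatekeeper of mitochondrial fatty acid import, had 46.7, 44.6 and 37.9 CPM in KD4, against 25.4, 24.0 and 26.3 CPM in shScr (log2 difference 0.74), and the fatty acid carrier Fabp5 had 15.5, 17.01 and 15.2 CPM in KD4, against 8.49, 9.37 and 7.28 CPM in shScr (log2 difference 0.85). In glycolysis and the response to hypoxia 2 of 36 rose and 4 fell, with 2 fallen when KD4 replicate 2, KD4 replicate 3 or any shScr replicate was left out. Pdk1, which restrains pyruvate dehydrogenase, had 49.2, 53.9 and 49.7 CPM in KD4, against 35.9, 35.5 and 31.8 CPM in shScr (log2 difference 0.55), and Vegfa, the endothelial growth factor, had 34.8, 39.4 and 37.5 CPM in KD4, against 22.6, 26.1 and 24.2 CPM in shScr (log2 difference 0.60). Pdk1 and Vegfa thus moved opposite to Slc16a3 and Car12, which are induced by hypoxia as well.

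Of 38 measured genes of the NRF2 response and of glutathione, 4 rose and 7 fell. Nfe2l2, which encodes NRF2 itself, had 72.7, 78.4 and 77.2 CPM in KD4, against 115, 117 and 105 CPM in shScr (log2 difference -0.55, limma adjusted p = 0.00328). The membrane-bound transferase Mgst1 had 1.22, 2.45 and 1.00 CPM in KD4, against 4.35, 4.52 and 5.23 CPM in shScr (log2 difference -1.20), and the export pump Abcc1 had 103, 102 and 109 CPM in KD4, against 135, 143 and 148 CPM in shScr (log2 difference -0.44). The list held 3 fallen genes without KD4 replicate 2 and 4 without shScr replicate 1 or 2, and 2 risen genes without shScr replicate 1. The risen members were Srxn1 and 3 mu-class transferases, Gstm1, Gstm2 and Gstm7. Of 27 measured p53 targets, Perp rose and 3 fell, with 5 fallen without KD4 replicate 1 and 1 without KD4 replicate 2, shScr replicate 1 or shScr replicate 3. Perp and Trp53inp1 kept their calls whichever library was left out, and the other 2 did not. Trp53inp1 had 50.2, 58.4 and 46.6 CPM in KD4, against 93.3, 90.6 and 83.3 CPM in shScr (log2 difference -0.78).

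Epithelial and chromatin genes gave single changes. Krt19, a keratin of simple epithelium, had 13.5, 13.2 and 11.9 CPM in KD4, against 21.5, 23.2 and 22.7 CPM in shScr (log2 difference -0.76), and Cd24a, a surface glycoprotein, had 9.51, 9.10 and 9.74 CPM in KD4, against 5.37, 4.81 and 3.83 CPM in shScr (log2 difference 0.89). They were the only 2 of 6 measured epithelial genes that passed, and without KD4 replicate 1 there were 2 risen genes and 1 fallen gene. Among 56 measured chromatin modifiers other than BAF, 2 rose and 3 fell. The list held 5 fallen genes without KD4 replicate 1, 0 risen without KD4 replicate 2, shScr replicate 1 or shScr replicate 2, 1 risen without shScr replicate 3, and 1 fallen without shScr replicate 2. The acetyltransferase gene Kat2b (PCAF), the single member called whichever library was left out, had 34.5, 37.95 and 41.2 CPM in KD4, against 60.1, 62.3 and 60.4 CPM in shScr (log2 difference -0.68). In the Myc network 0 of 20 rose and 3 fell by limma (1 and 6 at an unadjusted p under 0.05), among them Tert, the catalytic subunit of telomerase, with 2.52, 1.90 and 1.92 CPM in KD4, against 4.05, 5.04 and 4.86 CPM in shScr (log2 difference -0.86), and Tert was the single fallen gene without KD4 replicate 2 or shScr replicate 2.

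Stress and growth factor lists held few called genes, to be read beside the 4.48% of all genes that rose. Of 27 measured genes of the integrated stress response, in which cells slow translation and induce amino acid genes, 2 rose and 0 fell by limma (6 and 2 at an unadjusted p under 0.05). Eif4ebp1, an inhibitor of cap-dependent translation, had 150.4, 135 and 158 CPM in KD4, against 99.7, 103 and 112 CPM in shScr (log2 difference 0.49), and was called whichever library was left out. Atf4, the transcription factor of this response, had 307, 357 and 416 CPM in KD4, against 249, 263 and 265 CPM in shScr (log2 difference 0.46, limma adjusted p = 0.0338), but its call held only without KD4 replicate 1 among the fits that left out 1 library (adjusted p up to 0.127 in the other 5). The list held 4 risen genes without KD4 replicate 1 and 1 in each of the other 5 fits. Of 32 measured ERK feedback and immediate early genes, 3 rose and 0 fell by limma (10 and 2 at an unadjusted p under 0.05). The ETS factor Etv4 led them with 92.1, 90.3 and 98.6 CPM in KD4, against 56.6, 72.6 and 68.8 CPM in shScr (log2 difference 0.51), a call that was lost without KD4 replicate 2 (adjusted p = 0.0628). This list held 0 risen genes in that fit, 1 without any one shScr replicate, and 1 fallen gene without KD4 replicate 1, KD4 replicate 3 or shScr replicate 2.

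Of the 13 genes that process or use hairpin RNA, which bear on a hairpin line by its construction, 1 rose and 1 fell. Ago4, an Argonaute protein, had 4.02, 4.44 and 3.10 CPM in KD4, against 2.15, 1.53 and 2.21 CPM in shScr (log2 difference 0.71), and Tnrc6a, the GW182 scaffold that Argonaute proteins bind, had 149.7, 161 and 148 CPM in KD4, against 202, 195 and 194 CPM in shScr (log2 difference -0.36, limma adjusted p = 0.0142). The Ago4 call was lost without KD4 replicate 2 and without each shScr replicate (adjusted p up to 0.0956), and the Tnrc6a call without shScr replicate 1 or 2 (adjusted p up to 0.0643). With a replicate block in the fit the Ago4 and Tnrc6a calls were lost as well (limma adjusted p = 0.0708 and 0.0612). Without KD4 replicate 1 the list held 1 risen gene and 3 fallen genes, and without KD4 replicate 3 it held 2 risen genes. shScr expresses a hairpin too, so that these genes were compared between lines that both carry one.

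Several lists with many abundant members held few or no called genes by limma. The number called was 0 of 57 cytosolic ribosomal proteins (4 at an unadjusted p under 0.05), 0 of 69 splicing factors (10), 0 of 23 genes of the unfolded protein response (4) and 0 of 12 mitochondrially encoded transcripts (0). Without KD4 replicate 1, 1 ribosomal protein rose and 1 fell, 1 splicing factor fell and 1 gene of the unfolded protein response rose, and 1 ribosomal protein fell under either other scaling. Of 46 proliferation genes 2 rose and 1 fell, although 37 had a higher mean in KD4, and 1 rose and 0 fell without KD4 replicate 2, shScr replicate 1 or shScr replicate 2. Among 45 nuclear genes of oxidative phosphorylation 39 had a higher mean in KD4, and 1 passed (Ndufv2, with 44.5, 49.8 and 51.3 CPM in KD4, against 34.1, 40.2 and 37.2 CPM in shScr), with a median log2 difference of 0.10. The list held 4 risen genes without KD4 replicate 1. The call of Ndufv2 held without KD4 replicate 1 and was lost in the other 5 fits that left out 1 library, with an adjusted p of up to 0.133. All 20 replication histone genes had a higher mean in KD4, and 2 passed, of which H1f1 had 11.2, 11.4 and 10.5 CPM in KD4, against 3.80, 5.37 and 6.28 CPM in shScr (log2 difference 0.99), and 1 passed without shScr replicate 1 and 5 without shScr replicate 3. The summed level of these genes was 1910 to 2178 CPM in KD4 and 1578 to 1975 CPM in shScr. The part of this difference in the other results was not tested.

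**Figure D4:**
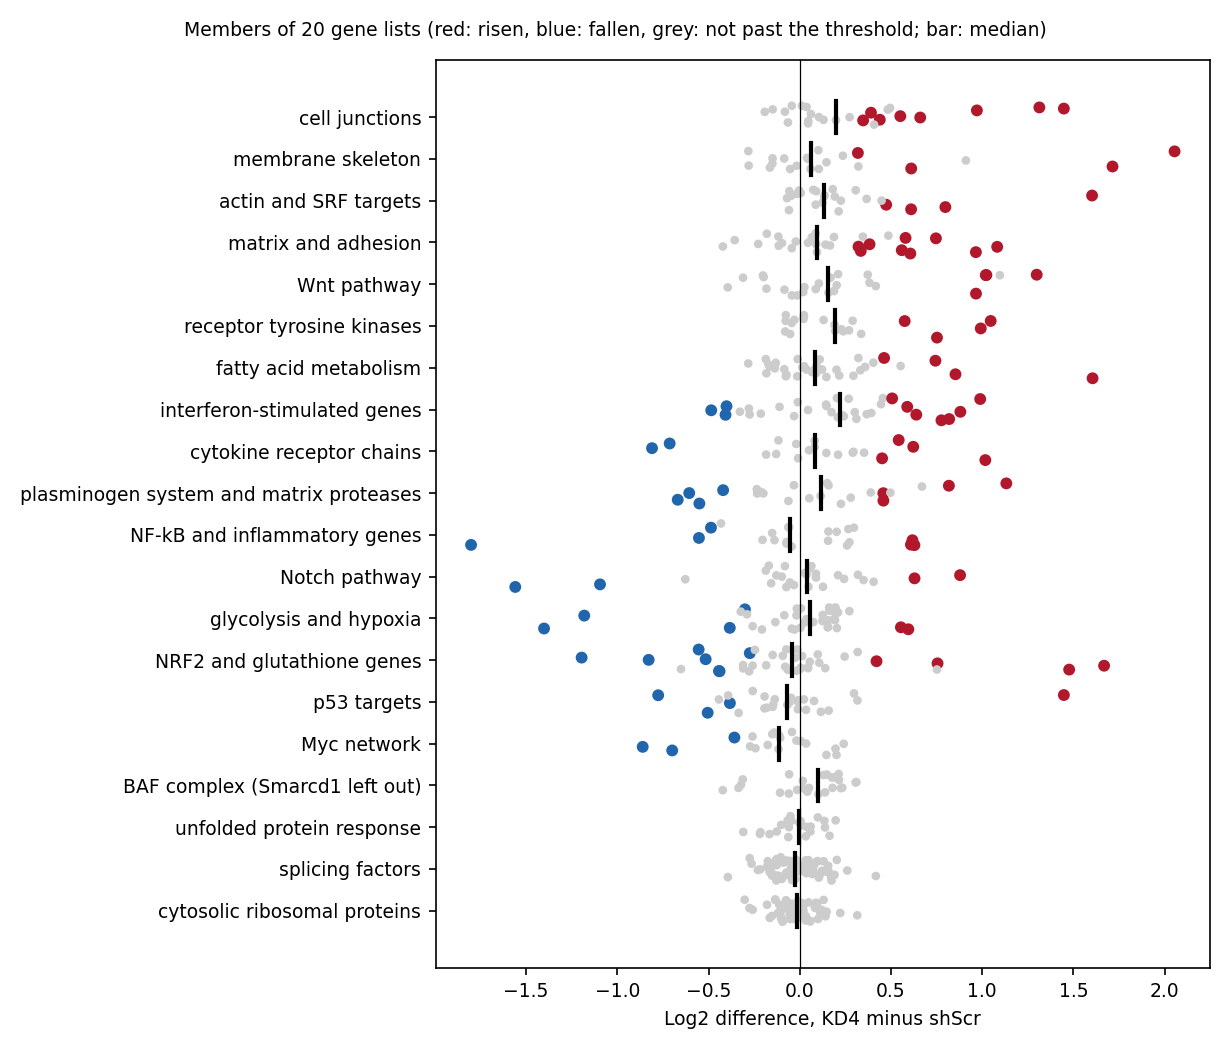
Log2 difference between KD4 and shScr (horizontal axis) for the measured members of 20 gene lists (rows), with risen members in red, fallen members in blue, other members in grey and the median of each list as a black bar. Cell junctions, the membrane skeleton, actin and matrix genes hold called members on the right side only, while the NRF2 and p53 lists hold more on the left. As 2.92% of all genes fell, lists of this size hold few fallen members in any case.

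KD6 carries another hairpin against the same gene and was compared with KD4 directly, in a fit of the KD4, KD6 and shScr libraries. KD6 and KD4 differed in 671 of 13669 genes (4.91%), and in 405, 298 and 396 without KD4 replicate 2, KD6 replicate 2 and KD6 replicate 3. This contrast and the one between KD4 and shScr share the KD4 libraries, so their values are given side by side and no agreement is drawn from them. Ntn1 had 1.65, 1.27 and 1.12 CPM in KD6, close to shScr and below every KD4 library (KD6 minus KD4 -1.58, limma adjusted p = 0.000339). Perp had 93.1, 84.9 and 82.1 CPM in KD6, close to KD4 and above every shScr library (KD6 minus KD4 -0.24, limma adjusted p = 0.184).

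Fallen genes divided in the same manner. Otud4 had 264, 268 and 280 CPM in KD6 (KD6 minus KD4 1.29, limma adjusted p = 3.56e-05), Tgoln1 had 270, 281 and 280 CPM (1.05, adjusted p = 0.000214), and Cpne1 had 96.5, 82.4 and 77.9 CPM (1.23, adjusted p = 0.000355), all above every KD4 library. Neurl1b had 5.49, 6.79 and 5.57 CPM in KD6 (KD6 minus KD4 0.26, limma adjusted p = 0.377), below every shScr library. Of the 15 leading risen genes 10 differed between KD6 and KD4, and of the 15 leading fallen genes 10 did. Those that did not pass were Epb41l4b, Acacb, Lgalsl, Perp and Nos1 among the risen and Neurl1b, Ogdhl, Septin4, Car12 and Cpne8 among the fallen.

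Some list members with a large change in KD4 were also apart from KD6. Wnt9a had 0.941, 1.07 and 0.596 CPM in KD6, below its shScr libraries (KD6 minus KD4 -1.73, limma adjusted p = 0.000288). Serpine2 had 47.3, 54.4 and 51.1 CPM in KD6, so that shScr lay between KD4 and KD6 (KD6 minus KD4 1.08, limma adjusted p = 0.000288). Jag2 had 107, 132 and 111 CPM in KD6 (KD6 minus KD4 1.255, limma adjusted p = 0.000339), a range that overlaps shScr.

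OE and EV were read from the transcript table, in which all 15 libraries are listed, by adding the transcripts of a gene. Smarcd1 averaged 8.10 ± 0.795 CPM in KD4, 13.2 ± 1.05 CPM in KD6, 37.3 ± 0.962 CPM in OE and 29.4 ± 2.74 CPM in EV, against 15.3 ± 1.55 CPM in shScr (SD, n = 3 each). The control lines EV and shScr thus did not overlap for the targeted gene, and OE lay above EV in every library. Perp averaged 102 ± 7.397 CPM in KD4, 86.7 ± 5.68 CPM in KD6, 99.5 ± 4.02 CPM in OE and 105 ± 5.66 CPM in EV, against 36.9 ± 3.56 CPM in shScr, so that shScr stood apart and not KD4. Epb41l4b was also lowest in shScr, with 7.67 ± 1.30 CPM in KD4 and 6.25 ± 1.40 CPM in EV, against 1.64 ± 0.576 CPM in shScr. Neurl1b, a fallen gene, averaged 4.70 ± 0.63 CPM in KD4 and 6.73 ± 0.375 CPM in EV, against 15.8 ± 2.73 CPM in shScr.

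For other genes KD4 was the lowest or the highest line. Otud4 averaged 109 ± 4.57 CPM in KD4, against 268 ± 9.73 CPM in KD6, 272 ± 9.93 CPM in OE, 267 ± 7.76 CPM in EV and 315 ± 22.6 CPM in shScr. Slpi averaged 21.9 ± 1.86 CPM in KD4, against 47.1 ± 5.84 CPM in KD6, 70.7 ± 6.99 CPM in OE, 80.5 ± 3.99 CPM in EV and 49.9 ± 4.79 CPM in shScr. OE and EV thus also lay above KD6 and shScr. Ntn1 averaged 4.83 ± 0.619 CPM in KD4, and its mean was between 0.82 and 1.22 CPM in the other 4 lines.

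Over the 965 called genes with listed transcripts, the EV mean lay nearer KD4 than shScr in 404 (41.9%). It did so in 278 of 577 risen genes (48.2%) and in 126 of 388 fallen genes (32.5%). The KD6 mean lay nearer KD4 than shScr in 421 of the 965 (43.6%). For KD6 these were 292 of the risen (50.6%) and 129 of the fallen genes (33.2%). A share over all genes was not computed for either line. For some genes the transcripts do not add up to the gene value: Synpo had 0.193 and 0.185 of it in KD4 and shScr, Mcf2l 0.724 and 0.113, Acacb 2.63 and 0.452, and Kcnt1 0.00219 and 0.884. A smaller set, chosen after the data were seen, held the 833 called genes whose sum lay within 20% of the gene value in KD4 and shScr. In it the share was 42.3% for EV and 44.2% for KD6. These shares describe where the EV and KD6 lines lie and have no test. The genes were chosen for a difference between KD4 and shScr, and EV differs from the hairpin lines in vector and drug.

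**Figure D5:**
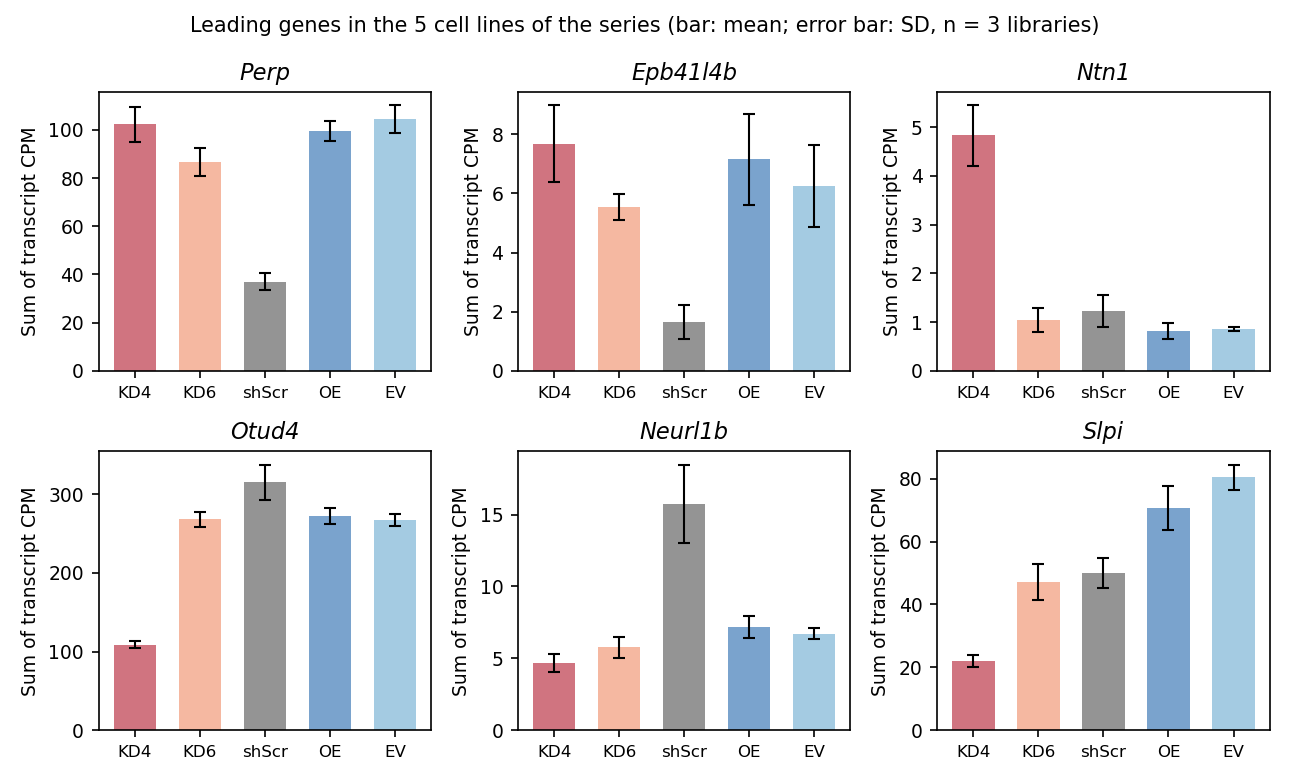
Mean sum of transcript CPM (vertical axes, from 0) of 6 leading genes in the KD4, KD6, shScr, OE and EV lines, with error bars for the SD of 3 libraries. For Perp, Epb41l4b and Neurl1b the shScr bar stands apart from the other 4, and for Otud4 and Ntn1 the KD4 bar does. For Slpi KD4 is the lowest, and OE and EV lie above KD6 and shScr.

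Transcripts were tested in the same libraries. Of 30220 transcripts, 100 passed (0.331%), of which 55 rose and 45 fell, from 97 genes. For 91 of the 100 the gene itself had also passed. The transcript calls were fragile, with 0 or 1 left in each limma fit that left out 1 library of either line (3236 to 4717 at an unadjusted p under 0.05). Single transcripts carried the change of Perp and Tgoln1, whose listed transcript held the whole gene value, while Otud4 had 2 listed transcripts. Of these, ENSMUST00000173286 had 62.8, 54.5 and 52.3 CPM in KD4, against 173, 161 and 156 CPM in shScr (log2 difference -1.52, limma adjusted p = 0.0137).

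Among the 8 transcripts with the smallest p, Ppif and Tmem14c encode mitochondrial membrane or matrix proteins. The Ppif transcript, for the cyclophilin of the permeability transition pore, had 14.9, 15.05 and 14.4 CPM in KD4, against 31.0, 36.7 and 33.8 CPM in shScr (log2 difference -1.14). The Tmem14c transcript had 23.9, 22.9 and 24.2 CPM in KD4, against 44.4, 44.6 and 45.5 CPM in shScr (log2 difference -0.89), and the Car13 transcript, for a cytosolic carbonic anhydrase, had 29.6, 30.4 and 32.2 CPM in KD4, against 14.5, 12.03 and 11.4 CPM in shScr (log2 difference 1.23). KD4 replicate 1 did not stand apart in these transcripts. The single listed Smarcd1 transcript had 8.32, 7.22 and 8.76 CPM in KD4, against 14.1, 17.03 and 14.7 CPM in shScr (log2 difference -0.84), and at the transcript level its limma adjusted p was 0.0532.

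The share of each transcript within its gene was compared with limma's diffSplice, which called 74 of 7077 genes with at least 2 transcripts (1.05%). The test also made calls in simulated libraries without any change, so the 74 are not read as isoform changes. Among transcripts with a mean of at least 5 CPM it called 12 genes, and a limma test of each transcript's own share, added after the data were seen, called 0, with 599 genes at an unadjusted p under 0.05. No gene is therefore named for a change of isoform.

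Promoter letters were read for the genes that moved, as these are the regions a remodelling complex can act on. RefSeq promoters (GRCm38.p6, 250 bases before to 50 after the start) were matched by symbol for 458 of the 612 risen genes, 286 of the 399 fallen genes and 8861 of the 13669 genes tested. Of 5 motifs searched on both strands, TGACTCA, the site of AP-1 factors, was in 8.3% of risen genes and 4.9% of fallen genes, beside 4.67% of all genes tested and 5.2% of all promoters of the table. The E-box CACGTG was in 10.5% of risen and 15.4% of fallen genes, beside 12.1% of genes tested. GGAATG of TEAD factors was in 14.2% of risen and 15.7% of fallen genes (14.1% of genes tested), TGACNNNGC of the antioxidant response element in 17% and 18.2% (17%), and TGACGTCA of the cAMP response element in 2.62% and 2.8% (3.8%). TGACTCA followed by GC also reads as TGACNNNGC, so these motifs can overlap. These shares are descriptions without a test, and a match is not a bound site.

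Of the 62 risen list members with a promoter in the table, 6 held TGACTCA, a count that left out promoters on 1 chromosome while the 62 did not. The 3 of these 6 with the largest log2 difference are shown. They belong to the protease, cytokine receptor and interferon lists described above. Capitals mark the motif, which reads TGAGTCA on the strand printed. It begins 63 bases before the start in Mmp10 (chr9:7502092-7502391, plus strand), 30 bases before it in Il15ra (chr2:11705462-11705761, plus strand) and 87 bases before it in Rsad2 (chr12:26456403-26456702, minus strand). Rsad2, an antiviral enzyme, had 10.5, 15.9 and 11.3 CPM in KD4, against 6.76, 3.78 and 7.32 CPM in shScr (log2 difference 0.99, limma adjusted p = 0.0301). Its call was lost without KD4 replicate 2, shScr replicate 1 or shScr replicate 2 (adjusted p up to 0.108), and with a replicate block in the fit (limma adjusted p = 0.0771).
Mmp10: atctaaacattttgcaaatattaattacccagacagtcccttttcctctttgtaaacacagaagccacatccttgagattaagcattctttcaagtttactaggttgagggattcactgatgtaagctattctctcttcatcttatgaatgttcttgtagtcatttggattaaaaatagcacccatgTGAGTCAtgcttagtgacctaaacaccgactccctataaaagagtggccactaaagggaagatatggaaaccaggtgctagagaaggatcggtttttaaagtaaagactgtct
Il15ra: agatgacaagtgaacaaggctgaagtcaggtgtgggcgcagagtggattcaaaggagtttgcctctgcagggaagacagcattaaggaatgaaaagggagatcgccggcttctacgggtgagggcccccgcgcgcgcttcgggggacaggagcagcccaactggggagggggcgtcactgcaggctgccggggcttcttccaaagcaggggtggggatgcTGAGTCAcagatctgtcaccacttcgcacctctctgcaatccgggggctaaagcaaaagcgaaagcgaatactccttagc
Rsad2: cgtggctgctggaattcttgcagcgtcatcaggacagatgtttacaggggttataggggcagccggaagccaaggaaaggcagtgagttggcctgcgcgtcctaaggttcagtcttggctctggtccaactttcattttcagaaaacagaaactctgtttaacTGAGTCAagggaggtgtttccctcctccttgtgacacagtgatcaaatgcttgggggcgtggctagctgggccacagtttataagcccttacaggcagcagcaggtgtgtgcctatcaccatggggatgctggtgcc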

How the data were processed

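The study sequenced mRNA of 5 lines of 6DT1 cells with 3 libraries each, and the comparison used KD4 and shScr, with KD6, OE and EV for placement. RNA with an integrity number above 7 was sequenced. The deposited values are CPM that the authors computed per gene and per transcript, without zeros and with a lowest geometric mean over libraries of 1.001 CPM, so low genes had been removed. Per the labels reads were aligned with STAR 2.7.8a to mm39. A different aligner, build and annotation stand in the study's methods, so the path is not settled and no coordinate was taken from the files. Depth is unknown. A further 15 columns per library in the transcript table matched no sample and were not used, nor were the authors' own fold changes and p values.

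Values were transformed to log2(CPM + 1), a scale that understates changes of low genes, and the lines were compared by limma (version 3.58.1, R 4.3.3) using its trended variance prior (KD4 against shScr on 6 libraries, KD6 against KD4 on 9). Benjamini-Hochberg adjustment covered every gene or every transcript of the table, and an adjusted p under 0.05 was a call. Isoform share was tested with diffSplice and Simes' method. Tests were checked on simulated data. Symbols were matched for 11932 of 13669 gene identifiers. No other split of the libraries into batches was given by the labels, and replicate numbers were not taken as pairs.

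Named genes were Smarcd1, in each direction the 15 called genes of greatest log2 difference, given no overlap between the lines and a 6-library mean of 2 or more on the log2(CPM + 1) scale (predicted, pseudogene and unnamed genes left out), up to 4 members per list and 8 transcripts with the smallest p. The 5 isoform share genes that the rule also names were left out, as their calls did not hold in a second test. Smarcd3, Krt8 and Krt18 by value, further list members and the promoters shown were chosen after their values were seen. Members and lists were chosen with earlier results of these data known. Alternatives were a pseudocount of 0.1, other scalings, a minimum of 5 CPM, a replicate block, no trend, KD6 in the fit, an adjusted p under 0.1 and each library left out; list counts under other settings and with each library left out and the test of each transcript's share were added after the data were seen.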

Additional observations from a re-analysis of the deposited data

Results flagged for a closer look

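Differences between the hairpin lines are given here as KD6 minus KD4 on the log2 scale, for Smarcd1 and those of the 30 leading genes in which limma called the difference between KD6 and KD4, with both lines read beside the same shScr libraries. For Smarcd1 it was 0.5978. Among risen genes it was -1.468 for Mcf2l, -0.5939 for Add3, -0.8489 for Gstm7, -0.6445 for Blnk, -0.7545 for Synpo, -0.809 for Gstm2, -1.579 for Ntn1, -0.8429 for Eya1, -1.136 for Col12a1 and -0.8112 for Ntn4, so that each was lower in KD6 than in KD4. Among fallen genes it was 3.064 for Kcnt1, 0.83 for Sema4d, 1.044 for Aqp8, 1.141 for Srgn, 1.295 for Otud4, 1.007 for Slc16a3, 1.048 for Tgoln1, 1.225 for Cpne1, 1.058 for Dhdh and 1.065 for Slpi, so that each was higher in KD6 than in KD4. As the genes were chosen for a large difference of KD4 from shScr, and the KD4 libraries enter both contrasts, these signs are no separate support for either contrast. In the fit of the 3 lines, KD6 minus shScr had the sign of KD4 minus shScr and passed by limma for some of them. It was 1.46 for Add3, 0.963 for Blnk, 0.847 for Synpo, 0.819 for Gstm7, 0.582 for Eya1 and -0.801 for Sema4d. For Smarcd1 and the other genes of this paragraph it did not pass. KD4 and KD6 share the shScr libraries, so no agreement is drawn from these values.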

How the results depend on the processing

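The log2 difference of Smarcd1 lay between -0.74 and -0.64 and was called under every alternative run. Of 30 leading genes, 29 lost no call. Of 149 named called genes 0 changed sign, but 76 lost their call under at least 1 alternative, 56 of them with a replicate block. Of 13669 genes, 454 were called with a replicate block, 1774 at an adjusted p under 0.1, and 376 to 1082 with 1 library left out. Deviations of same-numbered libraries correlated at -0.0167, 0.118 and -0.384, and those of unlike-numbered libraries at -0.49 to 0.44. Deviations from a mean of 3 libraries constrain each other, so these values cannot decide whether equal numbers shared a batch. With the block 0 transcripts (3250 at an unadjusted p under 0.05), 6 isoform share genes and 349 genes between KD6 and KD4 were called. Transcript calls numbered 32 without an intensity trend, 343 with KD6 in the fit, 333 at an adjusted p under 0.1, and 0 to 1 with 1 library left out. Isoform share calls numbered 12 at a mean of at least 5 CPM, 0 by the share of each transcript, 165 at an adjusted p under 0.1, and 14 to 95 with 1 library left out. Genes called between KD6 and KD4 numbered 440 with only those lines in the fit, 1091 at an adjusted p under 0.1, and 298 to 539 with 1 library left out. The cause of these moves was not tested. Other scalings moved the median of all genes by less than 0.01. As depth is unknown, the counting error of low genes could not be told apart from the spread between libraries.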
